A study of Mus musculus with 12 samples.

Results

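The genes described here encode the vacuolar proton pump (V-ATPase) and other proteins of the lysosomal membrane. They were taken by symbol from the deposited count table and comprise 38 of the 54532 genes listed there. The rule names genes by their function, but it was drawn up with earlier results of these data known. All 38 passed the filter on low counts that left 15014 genes for testing, Mcoln3 through the positive sorts alone. They fall into 7 V0 sector subunits, 8 V1 sector subunits, 2 accessory subunits, 3 membrane glycoproteins, 8 ion channels and exchangers, 7 transporters and enzymes, and 3 further membrane proteins.

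The study asked how tumour-associated macrophages (TAMs) that take up perfluoro-crown-ether (PFCE) nanoparticles in glioma differ from those that do not. All 6 glioma-bearing mice carried the genotype labelled Ntv-a_Ink4a/Arf_KO, and all received the agent labelled Rhodamine_PFCE_NP into a vein, so no group was free of the genotype or the agent. At 24 hours the tumours were sorted through a gate given as CD45+, CD11b+ and Ly6C- (the series text lists Ly6C- 2 times, and whether the second entry stands for another marker is not given), and cells with and without rhodamine were collected from every animal (more than 2000 cells a sort), which made 12 polyA RNA libraries in 6 pairs. Mice 1 to 4 were labelled male and mice 5 and 6 female; the labels used here give no age and put all libraries into 1 batch. Library totals ran from 13073189 to 17379314 counts. The negative sort of mouse 5 stood apart, with the lowest summed level of the 38 genes, the lowest summed level of 8 macrophage markers (4873 CPM, the TMM-scaled count relative to library size) and the highest of 8 dendritic cell markers (1485 CPM).

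The V-ATPase couples ATP hydrolysis by its cytosolic V1 sector to proton transport through its membrane V0 sector, and so acidifies endosomes and lysosomes. Chloride exchangers, cation channels and solute transporters in the same membrane balance the charge, release calcium and export the products of digestion. In macrophages this machinery serves the breakdown of ingested particles. Many genes of lysosomal proteins are known targets of the MiT/TFE transcription factors, which bind E-box elements near the start of those genes.

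Because members moved together (below) and this element is a known feature of such genes, their promoters were searched for CACGTG and for the longer palindrome TCACGTGA, which contains it. Both read the same on both strands. RefSeq promoters of build GRCm38.p6, each 300 bases long (250 before and 50 after a start site), were on hand for 29 of the 38 genes. The 9 others were Atp6v0a2, Atp6v0d2, Atp6v1b2, Atp6v1c1, Atp6v1g1, Atp6v1h, Hgsnat, Npc1 and Tpcn1. CACGTG stood in a promoter of 9 of the 29 genes (31.0%), against 1186 of 10194 tested genes with a promoter in the table (11.6%). TCACGTGA stood in 6 of the 29 (20.7%), against 220 of the 10194 (2.16%). Over all 27025 genes of the table the shares were 8.09% and 1.13%. A match is a description of the letters and not a measured binding site. For each of the 9 genes, 30 bases around 1 site are shown 5′ to 3′ on the gene's strand, so that the flanks can be compared; capitals mark CACGTG, and the run of Lamp1 opens inside a second site.

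Atp6v1a (chr16:44139373-44139402, minus strand): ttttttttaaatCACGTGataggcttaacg
Atp6v0d1 (chr8:105566050-105566079, minus strand): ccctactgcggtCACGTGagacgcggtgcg
Atp6v0e (chr17:26676387-26676416, plus strand): tagcgcgccgatCACGTGagcctctgttga
Clcn7 (chr17:25133386-25133415, plus strand): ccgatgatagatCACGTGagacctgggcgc
Cln3 (chr7:126583340-126583369, minus strand): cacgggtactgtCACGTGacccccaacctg
Mcoln1 (chr8:3500462-3500491, plus strand): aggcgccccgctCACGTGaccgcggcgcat
Atp6v0b (chr4:117887330-117887359, minus strand): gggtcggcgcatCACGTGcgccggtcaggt
Lamp1 (chr8:13159134-13159163, plus strand): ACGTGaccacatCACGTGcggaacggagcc
Mcoln2 (chr3:146150090-146150119, plus strand): tccctgagctcaCACGTGgaccccattctg

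The first 6 of these hold the 8-base form, and positions given here are those of CACGTG relative to the RefSeq start site. Atp6v0d1 and Atp6v0e have it next to the start site, beginning 3 bases before and at base 4 of the gene. Clcn7 has it from base 8, with a further CACGTG beginning 15 bases before the start. In Cln3 and Atp6v1a it begins 121 and 131 bases before the start, and in Mcoln1 it begins 45 bases before. Further RefSeq promoters of Cln3 (chr7:126585768-126586067) and Clcn7 (chr17:25136381-25136680), at other start sites, hold no CACGTG. The promoter of Lamp1 holds 4 CACGTG sites. Of the 6 genes with the 8-base form, Atp6v1a, Atp6v0d1, Clcn7 and Cln3 were higher in the positive sort below, and Atp6v0e and Mcoln1 did not pass the test. Of all 38 members, with or without the element, 26 were higher. Whether the element goes with the sort difference was not tested.

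Of the 38 genes, 26 were higher in rhodamine-positive TAMs, 0 were lower and 12 did not pass. The test was edgeR's quasi-likelihood test with the mouse as a block and Benjamini-Hochberg adjustment over all genes tested, at an adjusted p under 0.05. In the same test, 26.2% of all 15014 genes were called, 13.0% higher and 13.2% lower. With unadjusted p under 0.05, 28 members were higher and 0 lower, and the share of all genes at that threshold is not given here. Both limma-voom and DESeq2 also called 26 members higher and 0 lower. Over all genes, limma-voom called 2050 higher and 2021 lower, and DESeq2 2010 higher and 2276 lower. The median log2 fold change of the members was 0.43, against -0.02 for all genes tested, and their values ran from -0.21 to 2.37. Mcoln3 passed the filter on low counts only through the sorts in which it was high, so its call is no independent support; of the other 37 members, 25 were higher, with a median of 0.43. In bulk libraries such as these, a smaller share of cells expressing a gene and less RNA per cell cannot be told apart.

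The shift was present in each animal. The median member difference was 0.33, 0.39, 0.42, 0.26, 0.65 and 0.30 on the log2 scale in mice 1 to 6, and between 28 and 36 of the 38 genes were higher in the positive sort of a given mouse. Over all 15014 genes tested, the median difference of a mouse lay between -0.02 and 0.04, and 7255 to 7787 genes were higher. All 6 mice had the positive sort higher for 23 of the 38 genes, which was so for 14.2% of all genes tested. For 14 members the CPM ranges of the sorts did not overlap, with the positive sort above. This held for 4.14% of all genes tested. These CPM values rest on TMM factors of 1.022 to 1.146 in the negative and 0.923 to 0.980 in the positive sorts. Overlap without these factors was not examined. Mcoln3, which passed the filter on low counts through the positive sorts alone, is among both the 23 and the 14. Summed over the 17 V-ATPase subunits and accessory proteins, the level was 2847 to 4126 CPM in the negative sorts (median 3580) and 4657 to 5008 CPM in the positive sorts (median 4779). Without mouse 5, 25 members were called higher, beside 1590 of all genes, and the median over all 38 members was 0.38.

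**Figure D1:**
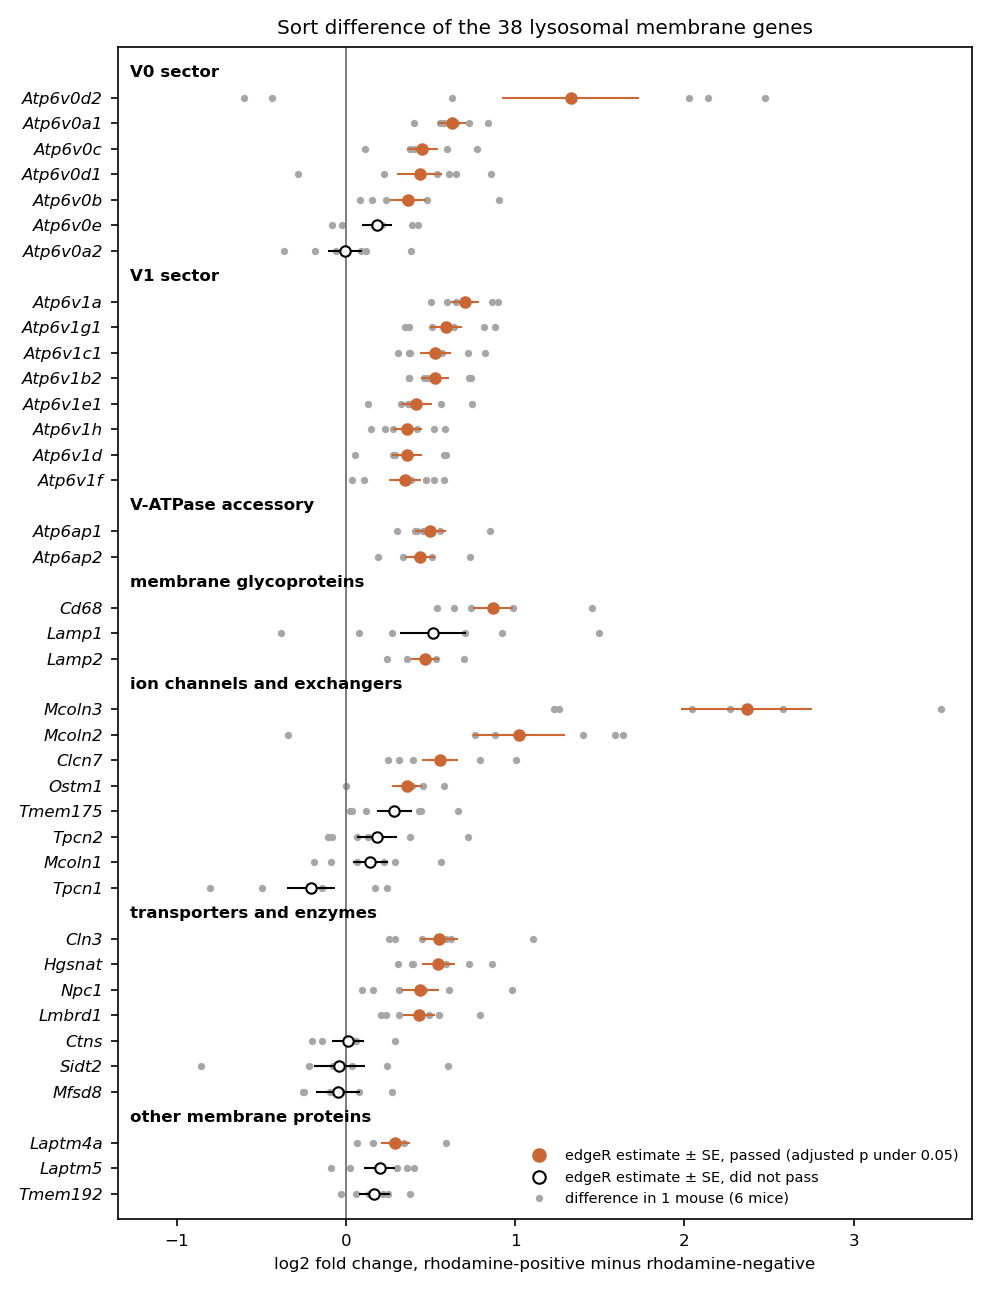
Log2 fold change of each of the 38 genes (x axis, rhodamine-positive minus rhodamine-negative), grouped by role. Large points are edgeR estimates with bars of 1 SE, filled where the adjusted p was under 0.05, and small grey points are the differences within each of the 6 mice. All 8 V1 subunits lie to the right of 0 in every mouse, whereas Atp6v0d2 is spread from -0.61 to 2.48.

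The V1 sector rose throughout: 8 of 8 subunits were higher, each in 6 of 6 mice, with log2 fold changes between 0.35 and 0.70. Atp6v1a encodes the catalytic A subunit, which hydrolyses ATP (chromosome 16, 44085402 to 44139705, mm10), and had the smallest p of all members. Its CPM was 158, 169 and 195 (lowest, median, highest) in the negative sorts and 238, 287 and 319 in the positive sorts. The groups did not overlap, and the log2 fold change was 0.70 ± 0.08 (SE, 6 pairs, adjusted p = 0.000149).

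Atp6v1b2 encodes the B subunit, which alternates with A in the V1 head. It measured 196, 236 and 243 CPM in the negative sorts and 305, 326 and 349 CPM in the positive sorts. These ranges stood apart as well, by 0.52 ± 0.08 (adjusted p = 0.00108). Atp6v1g1, a stalk subunit, ran from 184 through a median of 254 to 322 CPM in the negative sorts and from 338 through 376 to 410 CPM in the positive sorts. Its log2 fold change was 0.59 ± 0.09 (adjusted p = 0.000989), and every positive sort lay above every negative sort. Atp6v1c1 encodes the C subunit, which links V1 to V0 and leaves the complex when the pump disassembles. Its levels were 165, 218 and 252 CPM against 291, 301 and 347 CPM, again without overlap (0.53 ± 0.09, adjusted p = 0.00163).

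The other V1 subunits rose less. Atp6v1e1 was higher by 0.42 ± 0.09, Atp6v1h, the regulatory H subunit, by 0.36 ± 0.09, Atp6v1d by 0.36 ± 0.09 and Atp6v1f by 0.35 ± 0.09, with adjusted p between 0.00624 and 0.0179. Atp6v1h was the only one of these 4 whose groups did not overlap. The call of Atp6v1f was lost without mouse 2, 3 or 6, at adjusted p of 0.0548, 0.0600 and 0.0607.

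In the V0 sector, 5 of 7 subunits were higher, with a median log2 fold change of 0.44. Atp6v0a1 encodes 1 isoform of the membrane subunit a, which lines the path of the protons and sets where the pump is sent (chromosome 11, 101009452 to 101063719). Its CPM was 121, 132 and 161 in the negative sorts and 175, 206 and 241 in the positive sorts. No positive sort fell within the range of the negative sorts, and the log2 fold change was 0.63 ± 0.08 (adjusted p = 0.000313).

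Atp6v0a2, a second isoform of the same subunit, had 125, 146 and 209 CPM in the negative sorts and 119, 159 and 200 CPM in the positive sorts. The groups lay over each other, with 3 of 6 mice higher and a log2 fold change of -0.00 ± 0.10 (adjusted p = 0.980), the largest p of all members. Tcirg1, the a3 isoform best known from osteoclasts and not itself a member, measured 214, 249 and 315 CPM against 244, 259 and 332 CPM. It did not pass either (0.10 ± 0.08, adjusted p = 0.378). Compared per kilobase of exon, Atp6v0a1 took 20.7 ± 2.5% (SD, n = 6) of the a-subunit level in the negative sorts and 27.7 ± 3.2% in the positive sorts. Atp6v0a2 took 23.8 ± 2.8% and 20.6 ± 2.5%, and Tcirg1, the most abundant form in both, took 55.5 ± 2.8% and 51.7 ± 4.0%.

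The within-mouse difference of Atp6v0a1 exceeded that of Atp6v0a2 by 0.63 ± 0.29 (SD) on the log2 scale, in 6 of 6 mice. It exceeded that of Tcirg1 in 6 of 6 mice as well, the contrast of Tcirg1 minus Atp6v0a1 being -0.53 ± 0.17 (SD). Each had p = 0.0312 in a two-sided exact sign-flip test, the smallest that 6 pairs allow, and an adjusted p of 0.0938 over the 9 contrasts between related genes. Neither therefore passed after adjustment.

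Atp6v0c encodes the proteolipid that forms most of the rotating ring. Its levels were 95.5, 116 and 133 CPM in the negative sorts and 143, 158 and 163 CPM in the positive sorts. The groups did not overlap (0.45 ± 0.09, adjusted p = 0.00476). A pseudogene copy, Atp6v0c-ps2, held 2785 counts over the 12 libraries beside 23937 for Atp6v0c itself, so some reads of the pair may be exchanged. Atp6v0b, the second ring proteolipid, was higher by 0.37 ± 0.11 (adjusted p = 0.0272), and the call was lost without mouse 2, 3 or 6 (adjusted p = 0.0713, 0.0575 and 0.0654). Atp6v0e, a small membrane subunit, did not pass (0.18 ± 0.09, adjusted p = 0.161).

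Subunit d joins the ring to the stalk and has a broadly expressed form, Atp6v0d1, and a form known from osteoclasts and some macrophages, Atp6v0d2. Atp6v0d1 measured 49.0, 70.8 and 76.9 CPM in the negative sorts and 62.3, 91.3 and 121 CPM in the positive sorts. It was higher in 5 of 6 mice (0.44 ± 0.13, adjusted p = 0.0305), and mouse 5 went the other way at -0.28. The call was lost without mouse 1, 2, 3 or 6, at adjusted p of 0.0858, 0.0917, 0.0896 and 0.0896.

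Atp6v0d2 was far lower in level and varied most between mice. It had 1.01, 1.66 and 8.77 CPM in the negative sorts and 0.714, 5.88 and 36.3 CPM in the positive sorts, and these ranges overlapped. The within-mouse differences were 2.14, 2.03 and 2.48 in mice 1, 3 and 5, 0.63 in mouse 4, and -0.61 and -0.44 in mice 2 and 6. The fitted log2 fold change was 1.33 ± 0.41 (adjusted p = 0.0313), and the call was lost without mouse 1 (0.130), mouse 3 (0.163) or mouse 5 (0.0751). Per kilobase of exon, Atp6v0d2 made up 2.87 ± 2.37% (SD, n = 6) of the d-subunit level in the negative sorts and 6.87 ± 7.06% in the positive sorts, reaching 17.9% in the positive sort of mouse 3. The contrast with Atp6v0d1 was 0.61 ± 1.63 (SD; exact sign-flip test, adjusted p = 0.387).

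Both accessory subunits were higher. Atp6ap1, which takes part in assembly of the pump, measured 444, 585 and 667 CPM in the negative sorts and 699, 817 and 892 CPM in the positive sorts (0.50 ± 0.09, adjusted p = 0.00211). Atp6ap2, also known as the prorenin receptor, measured 224, 252 and 301 CPM against 303, 345 and 403 CPM (0.44 ± 0.09, adjusted p = 0.00363). For neither gene did any positive sort fall into the range of the negative sorts.

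**Figure D2:**
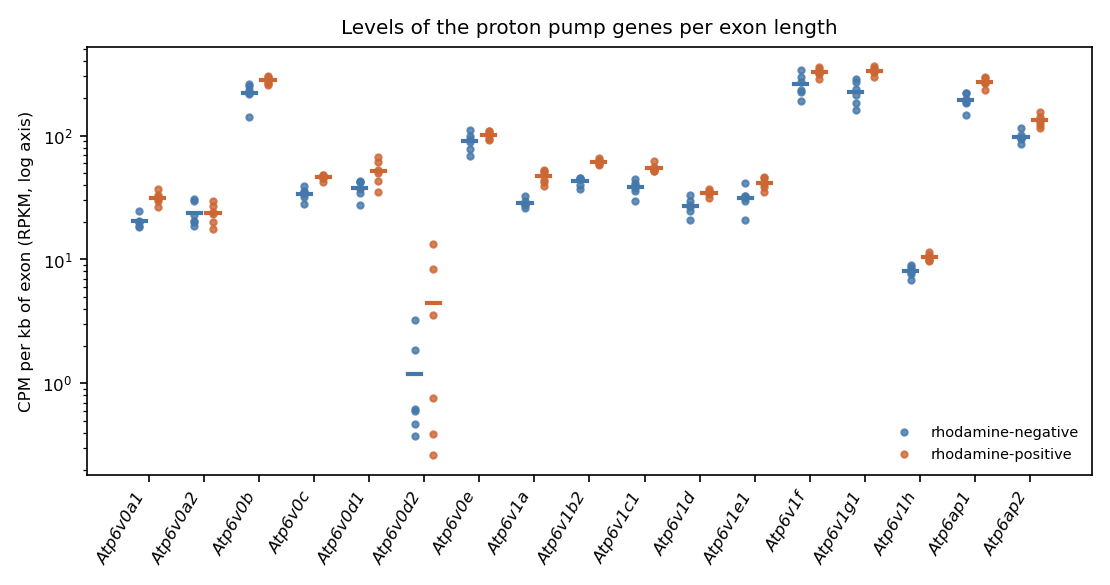
Level of the 17 V-ATPase genes as CPM per kilobase of exon (RPKM, log axis) in the 6 rhodamine-negative (blue) and 6 rhodamine-positive (orange) libraries; each point is 1 library and each bar a group mean. Atp6v1f, Atp6v1g1, Atp6v0b and Atp6ap1 had the highest means over all libraries, between 232 and 291 RPKM, and Atp6v0d2 the lowest, at 2.82 RPKM.

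For most V1 subunits with more than 1 isoform gene, a single gene held nearly all of the level. Atp6v1b2 made up 99.9% of the B-subunit RPKM in the positive sorts. Atp6v1g1 made up 99.1% and 99.6% of that of subunit G in the negative and positive sorts, and Atp6v1c1 97.8% and 97.0% of that of subunit C. RPKM here divides by the union of all annotated exons, so a gene with long rarely used exons reads low.

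Among the glycoproteins that coat the inner face of the lysosomal membrane, Cd68, the macrophage form also called macrosialin, had the highest RPKM of all members (995 ± 234 in the negative and 1783 ± 221 in the positive sorts, SD, n = 6). Its CPM was 786, 1296 and 1584 in the negative sorts and 1778, 2269 and 2522 in the positive sorts. The groups were separate, and the log2 fold change was 0.87 ± 0.12 (adjusted p = 0.000355). The negative sort of mouse 5 held the lowest value, and that mouse had the largest difference (1.45).

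Lamp2, which also takes part in the fusion of autophagosomes and in chaperone-mediated autophagy, measured 421, 492 and 574 CPM in the negative sorts and 648, 685 and 728 CPM in the positive sorts. It was higher in 6 of 6 mice without overlap (0.47 ± 0.08, adjusted p = 0.00218). Lamp1, its close relative, behaved less evenly: 162, 266 and 404 CPM against 188, 393 and 541 CPM. The ranges overlapped, 5 of 6 mice were higher, mouse 2 by 1.49, and mouse 5 was lower by -0.39. Lamp1 did not pass (0.51 ± 0.19, adjusted p = 0.0716), but passed without mouse 5 (0.70, adjusted p = 0.0113). Lamp2 minus Lamp1 was -0.05 ± 0.73 (SD; exact sign-flip test, adjusted p = 0.906).

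Lamp1 shares exon sequence with Grtp1 on the other strand, and the strand setting of the counting is not given in the sources used here. Grtp1 measured 55.4 to 141 CPM in the negative and 67.5 to 196 CPM in the positive sorts. Its differences in mice 1 to 6 were 0.96, 1.68, 0.18, 0.01, -0.20 and 0.79, close to those of Lamp1 at 0.92, 1.49, 0.27, 0.07, -0.39 and 0.70. Whether reads of the 2 genes were mixed in the counting cannot be told from the sources used here. Atp6v0b and Gm12841 are in the same position, with log2 fold changes of 0.37 each, and so are Ostm1 and Gm15200, at 0.36 each. Other partners went the other way from their member and did not pass. These were Apobr (-0.33, beside Cln3 at 0.55), Slc25a18 (-0.72, beside Atp6v1e1 at 0.42) and Dgkq (-0.11, beside Tmem175 at 0.29). In all, 12 members overlap an exon of a gene on the other strand.

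The cation channels of the mucolipin family release calcium from the lysosome. Mcoln1, the main form by level, measured 68.2, 87.1 and 107 CPM in the negative sorts and 78.2, 97.3 and 104 CPM in the positive sorts. The groups overlapped and the gene did not pass (0.14 ± 0.10, adjusted p = 0.337). Mcoln2 and Mcoln3, neighbours on chromosome 3, lay far below it.

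Mcoln3 (146117450 to 146141806) had 0.298, 0.519 and 1.22 CPM in the negative sorts and 1.59, 2.37 and 6.41 CPM in the positive sorts. All 6 mice were higher and the ranges did not overlap, with a fitted log2 fold change of 2.37 ± 0.39. This is given as a description: the gene had 5 to 96 counts per library, and 2 negative sorts against 6 positive sorts reached the minimum of the filter on low counts. Mcoln2 (146149833 to 146195513) had 1.48, 3.26 and 5.25 CPM against 3.34, 5.74 and 12.1 CPM. It was higher in 5 of 6 mice (1.02 ± 0.27, adjusted p = 0.0173), mouse 1 was at -0.34, and the call was lost without mouse 5 (0.89, adjusted p = 0.0540).

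Per kilobase of exon, Mcoln1 held 90.5 ± 3.8% (SD, n = 6) of the mucolipin level in the negative sorts and 80.6 ± 3.1% in the positive sorts. Mcoln3 held 1.44 ± 0.96% and 6.13 ± 3.47%, and Mcoln2 8.03 ± 3.24% and 13.3 ± 5.7%. Mcoln3 minus Mcoln1 was 2.01 ± 0.81 (SD), above 0 in 6 of 6 mice (exact sign-flip test, p = 0.0312, adjusted p = 0.0938), and did not pass after adjustment. Because Mcoln3 passed the filter on low counts through the positive sorts alone, this contrast is given as a description and is no independent support. Mcoln2 minus Mcoln1 was 0.84 ± 0.95 (SD, 5 of 6 mice, exact sign-flip test, adjusted p = 0.211).

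**Figure D3:**
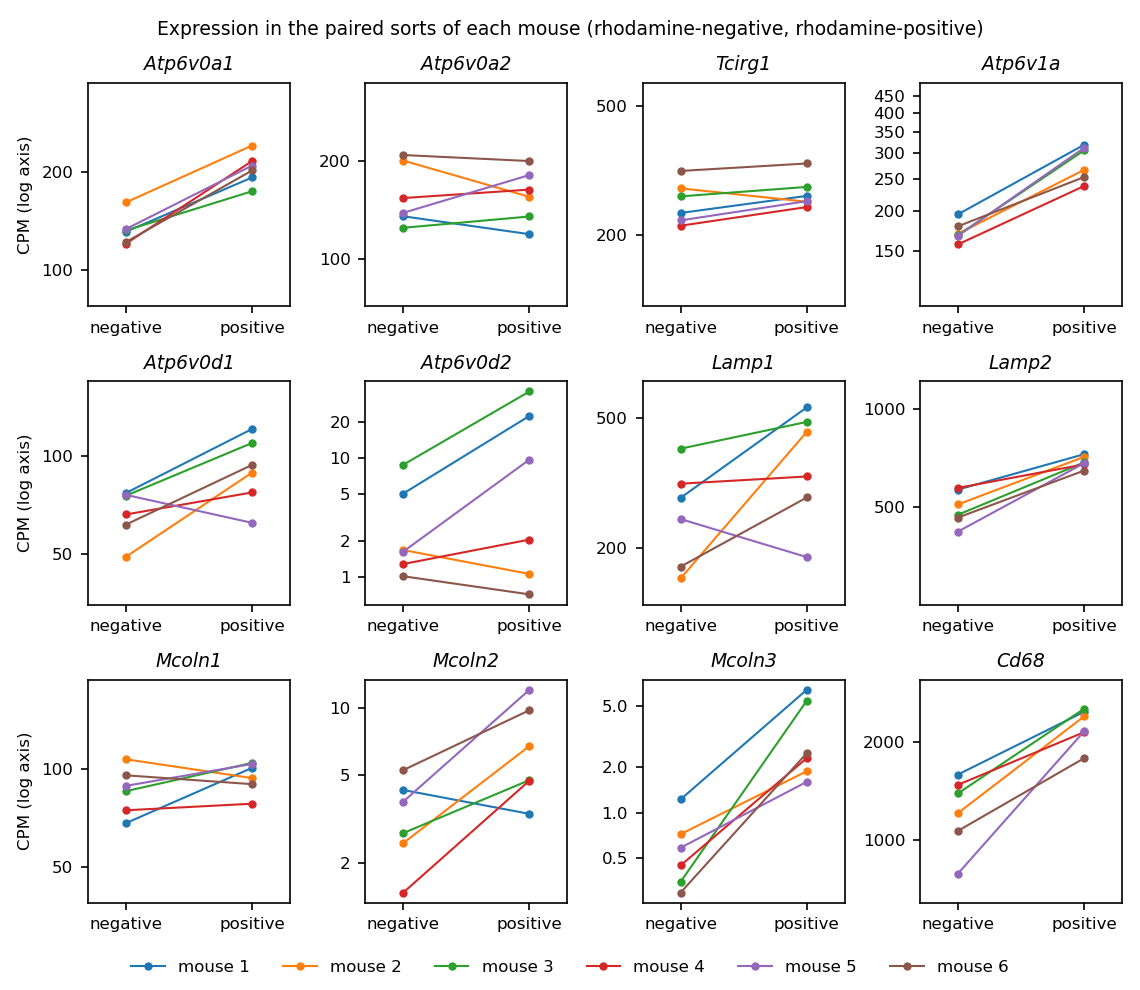
CPM (log axis) of 12 genes in the rhodamine-negative and rhodamine-positive sort of each mouse, joined by a line per mouse. The lines of Atp6v0a1, Atp6v1a, Lamp2, Mcoln3 and Cd68 rise in 6 of 6 mice, those of Atp6v0a2 in 3 of 6, and Atp6v0d2 rises steeply in mice 1, 3 and 5.

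The two-pore channels, which also pass cations out of endosomes and lysosomes, did not pass. Tpcn1 measured 24.4, 28.1 and 36.6 CPM in the negative sorts and 19.4, 23.5 and 35.3 CPM in the positive sorts, with the lowest log2 fold change of the members (-0.21 ± 0.14, adjusted p = 0.304). Tpcn2 measured 38.3, 43.3 and 52.4 CPM against 44.8, 48.7 and 63.3 CPM (0.18 ± 0.12, adjusted p = 0.270). Both pairs of ranges overlapped, and Tpcn2 minus Tpcn1 was 0.39 ± 0.61 (SD; exact sign-flip test, adjusted p = 0.281). Tmem175, a cation channel that limits acidification, was above 0 in 6 of 6 mice but missed the threshold (0.29 ± 0.10, adjusted p = 0.0615).

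Clcn7 exchanges chloride for protons, and Ostm1 is the subunit that stabilises it. Clcn7 measured 107, 130 and 187 CPM in the negative sorts and 173, 195 and 222 CPM in the positive sorts. It was higher in 6 of 6 mice with slight overlap of the ranges (0.55 ± 0.11, adjusted p = 0.00311). Ostm1 had 64.9, 75.4 and 84.2 CPM against 82.4, 94.6 and 110 CPM, higher in 5 of 6 mice (0.36 ± 0.09, adjusted p = 0.0130), and mouse 6 lay at -0.00. Ostm1 minus Clcn7 was -0.20 ± 0.28 (SD; exact sign-flip test, adjusted p = 0.328).

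Of the transporters and enzymes, 4 of 7 were higher. Cln3, whose loss causes a form of neuronal ceroid lipofuscinosis, measured 85.0, 112 and 128 CPM in the negative sorts and 135, 159 and 184 CPM in the positive sorts. The groups did not overlap (0.55 ± 0.11, adjusted p = 0.00385). Hgsnat acetylates heparan sulfate during its breakdown, and had 29.7, 46.4 and 54.7 CPM against 54.1, 64.1 and 82.3 CPM. It was higher in 6 of 6 mice (0.54 ± 0.10, adjusted p = 0.00210), and 1 positive sort fell just under the highest negative sort.

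Npc1, which exports cholesterol, was higher by 0.44 ± 0.11 (adjusted p = 0.0152), and Lmbrd1, needed for the export of cobalamin, by 0.43 ± 0.10 (adjusted p = 0.00704), each in 6 of 6 mice. The cystine exporter Ctns was at 44.5, 46.3 and 56.9 CPM in the negative and 46.0, 47.7 and 56.8 CPM in the positive sorts, and did not pass (0.01 ± 0.09, adjusted p = 0.942). Sidt2, linked to the uptake of nucleic acid into lysosomes, was at 61.7, 82.1 and 103 CPM against 52.7, 77.3 and 119 CPM (-0.04 ± 0.15, adjusted p = 0.867). Its differences ranged from 0.60 in mouse 1 to -0.85 in mouse 5. Mfsd8, another gene of neuronal ceroid lipofuscinosis, did not pass (-0.05 ± 0.13, adjusted p = 0.819).

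Laptm5, a membrane protein of haematopoietic cells, had the second highest RPKM of the members. It measured 2086, 2865 and 3074 CPM in the negative sorts and 2556, 3194 and 3719 CPM in the positive sorts, and did not pass (0.20 ± 0.09, adjusted p = 0.137). Its broadly expressed relative Laptm4a measured 189, 259 and 303 CPM against 277, 303 and 339 CPM, higher in 6 of 6 mice with overlapping ranges (0.29 ± 0.09, adjusted p = 0.0273). That call was lost without mouse 2, 3 or 6 (adjusted p = 0.0653, 0.0820 and 0.0657). Laptm5 minus Laptm4a was -0.09 ± 0.16 (SD; exact sign-flip test, adjusted p = 0.362). Tmem192, a marker protein of the lysosomal membrane, did not pass (0.17 ± 0.09, adjusted p = 0.192).

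Whether the sort difference depended on sex was tested with an interaction term (4 male and 2 female mice). With edgeR's quasi-likelihood test, 0 of the 38 members and 0 of all genes tested (0.0%) were called, while 3 members had an unadjusted p under 0.05 (Sidt2, Tpcn1 and Cln3; names chosen after their values were seen). Over all genes, 1160 had an unadjusted p under 0.05 for this term.

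Other genes of the pathway moved in part with the members. Of 18 further V-ATPase subunits and assembly factors, 14 were tested, 7 were higher and 2 lower, with a median of 0.29. Summed over the 18 genes, the level was 726 to 790 CPM in the negative sorts (median 752) and 719 to 782 CPM in the positive sorts (median 755). Tmem9, which binds the pump, was higher by 0.80 ± 0.16 (adjusted p = 0.00444) and Wdr7 by 0.58 ± 0.10 (adjusted p = 0.00140). Rogdi was lower by -0.76 ± 0.09 (adjusted p = 0.000125) and Ncoa7, whose protein also binds the pump, by -1.07 ± 0.16 (adjusted p = 0.000790). Wdr7 and Rogdi are partners in the mammalian RAVE-type complex, which helps V1 join V0. Here 1 was higher and the other lower. In the same list, Dmxl2 was also higher and Dmxl1 did not pass.

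Of 26 other lysosomal membrane genes tested, 10 were higher and 1 lower (median 0.23). Cd63, a tetraspanin of late endosomes, was higher by 1.03 ± 0.15 (adjusted p = 0.000597) and the heme transporter Slc48a1 by 0.79 ± 0.08 (adjusted p = 4.14e-05). The arginine sensor Slc38a9 was lower by -0.45 ± 0.13 (adjusted p = 0.0235). Of 40 soluble hydrolases and cofactors, 32 were higher and 1, Gm2a, lower (median 0.56). All 5 genes of the Ragulator complex, which anchors the Rag GTPases to the lysosomal membrane and interacts with the V-ATPase, were higher (Lamtor1 to Lamtor5, log2 fold changes 0.30 to 0.50), among 6 higher and 1 lower of 15 genes of that list.

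Of the 4 MiT/TFE factors, Tfec was higher (0.66 ± 0.18, adjusted p = 0.0186), from 4.41, 6.72 and 11.9 CPM to 6.33, 9.98 and 21.3 CPM in overlapping ranges. Tfeb (-0.12 ± 0.09), Tfe3 (0.11 ± 0.08) and Mitf (0.14 ± 0.12) did not pass (adjusted p = 0.357, 0.343 and 0.425). Of 7 tested osteoclast and cell fusion genes, 0 were higher and 4 lower, among them Dcstamp (-3.46 ± 0.17, adjusted p = 7.49e-07) and Ocstamp (-2.57 ± 0.19, adjusted p = 4.15e-06). Those are genes of the programme in which Atp6v0d2 is best known.

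Of 19 genes that tether lysosomes or set their position in the cell, 5 were higher and 1 lower (median 0.13). Vps33a, a core subunit of the HOPS tethering complex, was higher by 0.52 ± 0.09 (adjusted p = 0.00226), and Bloc1s2, a subunit of BORC, was lower by -0.66 ± 0.10 (adjusted p = 0.000827).

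Of 15 subunits of the mitochondrial ATP synthase, another rotary ATPase, 13 were higher and 0 lower, with a median of 0.39 beside 0.44 for the V-ATPase members. Of 11 P-type cation ATPases, 1 was higher and 2 lower (median -0.08).

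**Figure D4:**
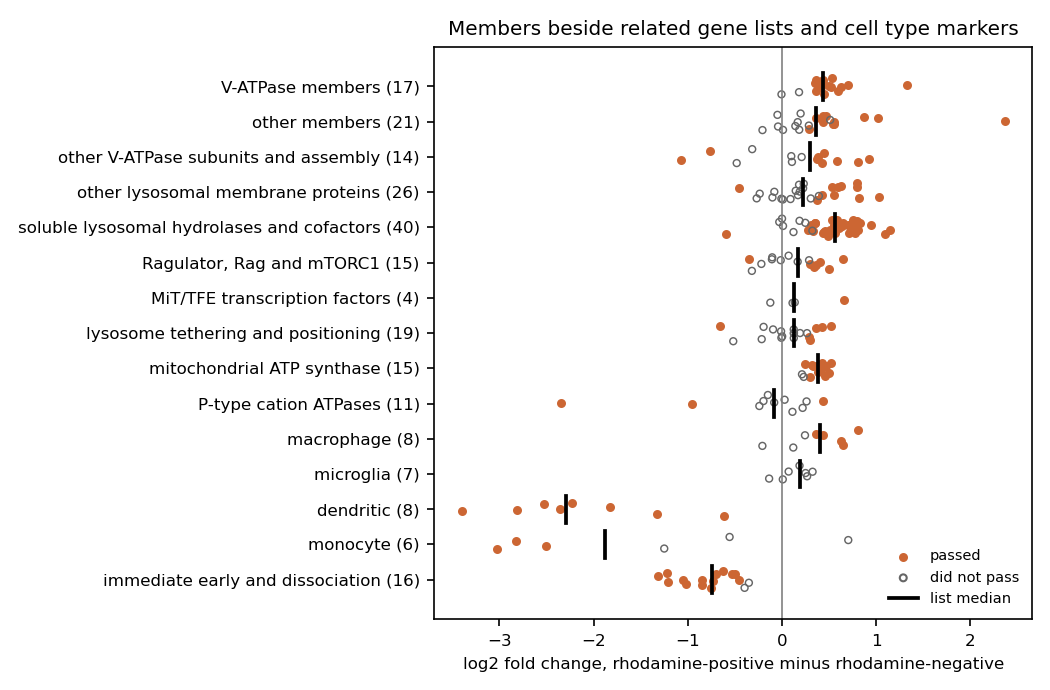
Log2 fold change (x axis) of the genes tested in each list, with the number tested in brackets; each point is 1 gene, filled where the adjusted p was under 0.05, and black lines are list medians. The V-ATPase members centre on 0.44, the soluble hydrolases on 0.56 and the mitochondrial ATP synthase on 0.39, while dendritic and monocyte markers lie far to the left.

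Markers of the sorted cell type and of other cells moved with the sorts as well. Of 8 macrophage markers, 5 were higher (median 0.40), and their sum ran from 4873 to 10186 CPM in the negative and 10093 to 12263 CPM in the positive sorts. Microglial markers summed to 2223 to 9008 CPM and 4500 to 8557 CPM, with 0 of 7 called by edgeR's quasi-likelihood test and 1, Olfml3, at an unadjusted p under 0.05. All 8 dendritic markers were lower (412 to 1485 CPM against 164 to 283 CPM summed; Clec9a and Xcr1 passed the filter through the negative sorts alone), as were 3 of 6 monocyte markers (235 to 593 CPM against 45.5 to 112 CPM). Basophil and mast cell markers summed to 5.98 to 413 CPM against 0.187 to 21.2 CPM, markers of T and NK cells to 40.5 to 89.3 CPM against 2.70 to 11.2 CPM, and neutrophil markers to at most 6.92 CPM and 3.17 CPM. Glioma and oligodendrocyte markers summed to 95.2 to 148 CPM against 43.4 to 132 CPM, B and plasma cell markers to 29.4 to 70.2 CPM against 21.8 to 40.7 CPM, and endothelial markers to 21.5 to 65.8 CPM against 28.9 to 78.2 CPM. No listed marker was at 0 in all libraries. Of 16 immediate early and dissociation genes, 14 were lower. The share of counts from mitochondrial genes was 0.547% to 1.28% and 0.675% to 1.11%. The part of these differences in the member results was not tested.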

How the data were processed

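The authors deposited raw read counts per gene and a table of log2 normalized values for 10605 genes, which held all 38 members; the 12 count files equalled the count table. The submitters' processing notes name the aligner HISAT2 2.1.0, the counter featureCounts 1.4.4 and build mm10, besides cutadapt, limma, edgeR and bcl2fastq 2.17; the strand setting is not given in the sources used here. From the deposited counts, genes passing filterByExpr (minimum count 10, total 15; 99.8% of counts) were scaled by TMM and fitted with edgeR 4.0.16 in R 4.3.3 (quasi-likelihood test, mouse as a block, Benjamini-Hochberg over 15014 genes). CPM values are TMM-scaled; SE is the absolute log2 fold change over the root of F; within-mouse differences use log2 CPM with a prior count of 2. RPKM used exon unions of GENCODE vM21, which also gave gene positions. The script was tested on simulated data.

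Sorts were paired because the labels give both sorts of a mouse 1 animal number. As a check, deviations from group means correlated at 0.0775 to 0.450 within mice, and for 5 of 6 mice the own pair correlated best. The alternatives used limma 3.58.1 and DESeq2 1.42.0.

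Members and lists were chosen with earlier results of these data known. Values by library are given for the 14 members with the smallest p, the 3 with the largest p, and the genes of 9 contrasts between related genes; other members are given by fold change, and from other lists up to 4 genes with the smallest p. For Lamtor genes, Slc38a9, Gm2a and the isoform genes this was widened after their values were seen.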

Additional observations from a re-analysis of the deposited data

Results flagged for a closer look

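Sets of 6 values were searched for 1 value far from the other 5: 114 sets of member values (CPM in each sort and the within-mouse differences), 26 of isoform shares and 42 of summed levels. Such a value was found in 14 of the 182 sets, many of which share libraries and genes, and chance gives about 1 in 20. Atp6v0a1 in the negative sort of mouse 2 stood at 161 CPM, with the others at 121 to 134 CPM. Atp6v1c1 in the positive sort of the same mouse stood at 347 CPM, with the others at 291 to 311 CPM. Both genes were still called higher without mouse 2. In mouse 4, Ctns stood at 56.8 CPM in the positive sort (others 46.0 to 49.3 CPM) and Mfsd8 at 16.7 CPM in the negative sort (others 10.8 to 12.8 CPM).

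Among isoform shares in the negative sorts, Atp6v0a1 made up 15.8% of the a-subunit RPKM in mouse 6 (others 21.0% to 22.8%), Mcoln3 3.30% of the mucolipin RPKM in mouse 1 (others 0.600% to 1.38%) and Atp6v1c1 96.6% of the C-subunit RPKM in mouse 4 (others 97.7% to 98.3%). In the positive sorts, Atp6v0a4 made up 0.0145% of the a-subunit RPKM in mouse 3 (0% in the others). Atp6v1e1 made up 99.9% of the E-subunit RPKM in mouse 5, where the others held all of it. Within each of these sets the other values were identical, so any departure, however small, would stand apart.

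Of the summed levels, the negative sort of mouse 5 stood apart for soluble hydrolases (36532 CPM, others 59730 to 72897 CPM), dendritic markers (1485 CPM, others 412 to 740 CPM) and T and NK cell markers (89.3 CPM, others 40.5 to 53.9 CPM). Its positive sort stood apart for basophil and mast cell markers (21.2 CPM, others 0.187 to 4.89 CPM). The positive sort of mouse 4 stood apart for endothelial markers (78.2 CPM, others 28.9 to 34.8 CPM).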

How the results depend on the processing

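No member was called lower under any of the alternatives run, and the count of members called higher stayed between 19 and 27 (of 36 members at 50 counts in 6 libraries, which left out Mcoln3 and Atp6v0d2, and of 38 otherwise) except with library size alone in place of TMM (17) and at an adjusted p under 0.01 (16). Without the replicate block, 19 members were called, and Atp6v0b, Atp6v0d1, Atp6v0d2, Atp6v1e1, Atp6v1f, Npc1 and Laptm4a were lost; pairing rests on the labels. Library size alone moved the median of all genes to -0.18 and that of the members to 0.27 (from -0.02 and 0.43); 9 calls were lost and 32 rather than 34 members lay above 0. Leaving out 1 mouse at a time gave 21 to 26 members. Over all genes, higher calls were 1270 without the replicate block, 852 with library size alone, 1005 in male mice alone, 908 at 0.01 and 1257 to 1780 without 1 mouse; lower calls were 3142 with library size alone, 1222 in male mice alone and 1033 at 0.01. Lamp1 passed in male mice alone (adjusted p = 0.0429) and with no filter (1.86e-05), and Atp6v0d2 did not pass in limma on the deposited log2 values (adjusted p = 0.0985). With no filter the SE of Lamp1 was 0.105, against 0.194 in the main fit, at log2 fold changes of 0.52 and 0.51. The median of all genes in the fit with no filter was -0.315. The sex term called 0 members under each alternative run; with no filter it called 119 genes. Depth limits Mcoln3, Mcoln2 and Atp6v0d2, the members with the fewest counts.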
